A study of Oryzias latipes and Danio rerio with 6 samples.

Results

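The regions described here are places inside zebrafish chromosomes where the control fusion, Dam-GFP, gave more signal than both of the factor fusions it was set against, Dam-Yap1 and Dam-Taz. They are called shared control regions below. A region of the Yap1 control list was taken when it overlapped a region of the Taz control list by at least 1 bp, together with the region it overlapped. Only chromosomes 1 to 25 were used, midpoints within 1 Mb of a chromosome end were left out, and so was chromosome 4 from 25 Mb onwards. The rule gave 3087 regions of the Yap1 control list and 3077 of the Taz control list, 6164 of the 52712 regions in the whole series. Joined where they overlapped, they formed 3053 separate loci. Members were selected on the measured signal itself, Dam-GFP against Dam-Yap1 and Dam-GFP against Dam-Taz, so the counts, lengths and scores that follow are descriptions and carry no test.

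Dam is a bacterial adenine methylase that marks GATC sites, a mark that fish DNA does not normally carry. Fused to a chromatin protein, it marks DNA where that protein dwells. Fused to GFP, which has no DNA target of its own, it marks DNA as the enzyme reaches it, and free Dam is known to methylate open chromatin more readily than compact chromatin. Yap1 and Taz are the co-activators at the end of the Hippo pathway, a kinase cascade that restrains growth by keeping them out of the nucleus. They reach DNA through partners, chiefly the TEAD factors. A Dam-GFP region is therefore a place where a factor fusion gave less than the untargeted enzyme, and it is not a bound site of GFP.

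The 6 samples of the series comprised 3 from zebrafish and 3 from medaka, with 1 sample per group, and only the zebrafish samples were used here. These were wild-type whole embryos at 80% epiboly, a late gastrula stage, injected with mRNA for Dam-GFP, Dam-Yap1 or Dam-Taz. Each sample stood for 3 replicates of 40 embryos, per the labels, but the lists are not split by replicate and carry no replicate error. Injected mRNA puts the fusion into the whole embryo, so the regions pool all cell types of the gastrula. The control lists were both deposited under the same Dam-GFP sample, and the factor that each belonged to was read from its name. The Yap1 and Taz comparisons therefore shared their control sample. Read depth was unknown, and intervals below cover counting of regions only. Coordinates are in GRCz10, the build named in the submitters' processing notes. Sequence, base content and gene position at these coordinates were not analysed here.

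The whole Yap1 control list held 8538 regions and the Taz control list 11025. The inner part held 7629 and 10100 of them. The shared control regions made up 40.5% of the inner Yap1 control list (Wilson 95% interval 39.4 to 41.6) and 30.5% of the inner Taz control list (29.6 to 31.4). These shares are fixed by the rule, and nothing further is read from them. In the positive lists, where a factor exceeded Dam-GFP, 1527 of 6288 inner Yap1 regions and 1514 of 5491 inner Taz regions overlapped each other. The remaining inner control regions, 4542 found in the Yap1 control list only and 7023 found in the Taz control list only, are the groups set beside the shared ones below. Nearly all shared loci were simple: 2997 of 3053 joined 1 region of each list, and 56 joined more than 2 regions.

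No pair sat close to the overlap threshold. The smallest overlap was 211 bp, on chromosome 9 (23650669 to 23651465 in the Yap1 control list), and 20 of the 3112 overlapping pairs overlapped by under 300 bp. The nearest regions that did not overlap were 4 bp apart, as on chromosome 1 (7959036 to 7959902). At the chromosome-end limit, the closest region kept had its midpoint 1001886 bp from an end, on chromosome 23 (1001592 to 1002181). The closest one left out lay 994198 bp from an end, on chromosome 18 (50012811 to 50013428). On chromosome 4 the last region kept was at 24815508 to 24815918 and the first left out at 25066073 to 25066694. Regions present in both control lists but outside the limits numbered 133 at chromosome ends, 61 on the rest of chromosome 4 and 52 on unplaced sequences, counted in the Yap1 control list.

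The edges of the shared control regions mostly coincided to the base. Of the 3112 pairs, 2247 (72.2%, 70.6 to 73.8) had the same start and the same end in both lists. Another 361 shared only the start and 338 only the end, while 166 (5.33%) shared neither. Where 1 edge was the same, the other differed by at least 204 bp, with a median of 691 bp (655 to 732). Between regions that did not touch, exactly 4 bp was the smallest gap within each control list. It was found 135 times in the Yap1 and 89 times in the Taz control list. A shared region of the Yap1 control list on chromosome 14 (31549949 to 31551143) overlapped another of the same list by 437 bp. Gaps of 1 to 3 bp were not seen in either list, and GATC, the sequence that Dam marks and DpnI cuts, is itself 4 bases long. Whether edges can fall only at GATC sites was not tested, and both lists share the Dam-GFP sample. Equal edges are therefore not read as agreement of independent comparisons. Across lists, 12 shared loci lay 4 bp from a region of the Yap1 control list only, 13 lay 4 bp from one of the Taz control list only, and 1 lay 4 bp from a Yap1 positive region.

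Pairs with equal edges were the short ones. Their median length was 708 bp. Pairs that shared only a start had medians of 1176 bp in the Yap1 and 1077 bp in the Taz control list, and pairs that shared neither edge had medians of 1593 and 1568 bp. Among the pairs with the same start and different ends, the Yap1 control region was the longer in 197 and the Taz control region in 164. Neither list was thus uniformly the wider one.

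Shared control regions were short as a class. Their median length was 777 bp in the Yap1 control list (order-statistic 95% interval 762 to 796) and 772 bp in the Taz control list (755 to 786). The interquartile range of the Yap1 control members was 569 to 1160.5 bp, and the longest was 7129 bp. In all they covered 3002 kb in the Yap1 and 2908 kb in the Taz control list. Regions of the Taz control list only were close to them, with a median of 816 bp (807 to 829). Regions of the Yap1 control list only were longer, with a median of 1133.5 bp (1084 to 1189), and 1728 of the 4542 exceeded 1500 bp, against 471 of the 3087 shared Yap1 control regions. Loci where both factors exceeded Dam-GFP had a median joined length of 1348 bp (1277 to 1401), against 831 bp (809 to 849) for the shared control loci. Joining lengthens a locus where edges differ, and 690 of 1594 positive pairs had equal edges. Before joining, the shared positive regions had smaller medians, 1024 bp in the Yap1 and 1040.5 bp in the Taz positive list.

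**Figure D1:**
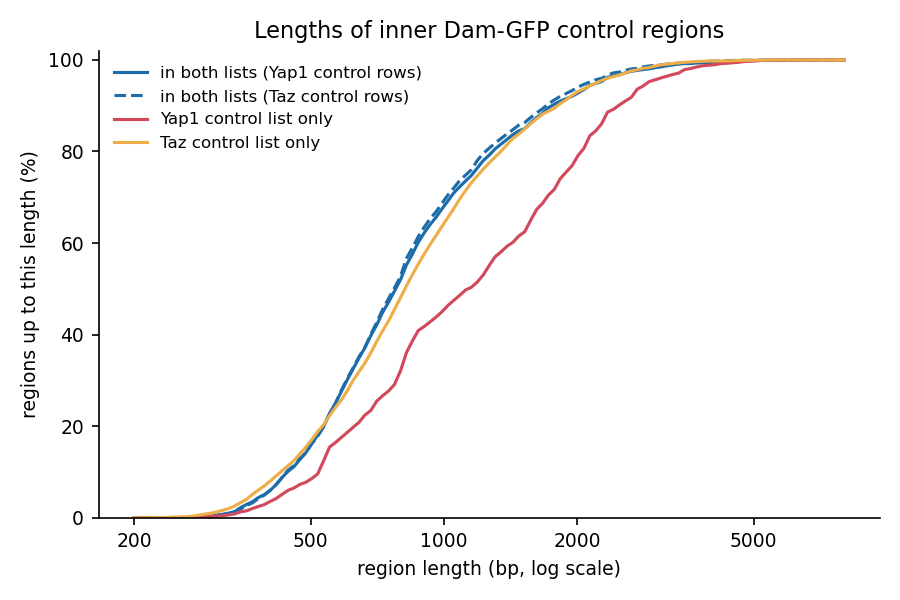
Cumulative share of inner Dam-GFP control regions (y axis, percent) up to a given length (x axis, bp, log scale) for regions in both control lists, shown by their Yap1 control rows and their Taz control rows, and for regions of the Yap1 or the Taz control list only. The curves of the shared regions, with medians of 777 and 772 bp, lie beside that of the Taz control list only, while the curve of the Yap1 control list only lies to the right and climbs in steps.

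Length went with membership differently in each list. In the Yap1 control list the share of regions that were also in the Taz control list was 56.3% (53.0 to 59.6) at up to 500 bp and 52.3% from there to 750 bp. It was 44.2% and 41.2% in the next classes, up to 1000 and up to 1500 bp. Above that it was 24.3% (21.7 to 27.0) at up to 2000 bp and 18.9% (16.8 to 21.3) beyond. In the Taz control list the share stayed between 26.9% and 34.8% in all 6 classes. The positive lists ran the other way, with 22.6% of Yap1 positive regions of up to 500 bp shared with Taz and 31.3% of those over 2000 bp. Since length comes from the same comparisons as membership, no test was made.

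**Figure D2:**
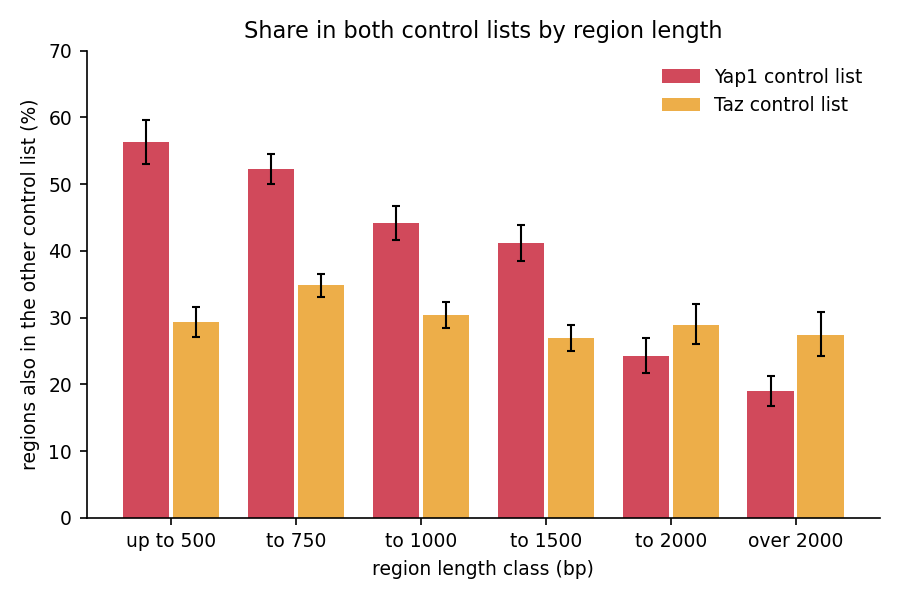
Share of inner Dam-GFP control regions that were also in the other control list (y axis, percent, bars from 0) by region length class (x axis, bp), with Wilson 95% intervals, for each control list. The Yap1 control list goes from 56.3% to 18.9% along the classes, whereas the Taz control list stays between 26.9% and 34.8%.

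The authors' score, given as whole numbers of an unstated quantity, differed between shared and unshared regions in opposite directions in the control lists. Its lowest value was 57 in the Yap1 and 66 in the Taz control list, and the highest 328 and 414. Shared control regions had a median score of 76 (75 to 77) in the Yap1 control list, with an interquartile range of 65 to 93. Regions of that list only had a median of 79 (78 to 80), with an interquartile range of 65 to 108. In the Taz control list the shared regions had a median of 96 (95 to 97) and the regions of that list only 87 (86 to 87). Of the 100 inner regions of highest score, 20 in the Yap1 and 23 in the Taz control list were in both lists. All inner regions gave 40.5% and 30.5%. The counts rest on 100 regions each and carry no interval, so no difference is read from them. Only 2 pairs had both regions among the top 100 of their list.

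Over regions of all lengths, the shared share in each control list was highest in the class below the top one. In 4 equal score classes, 41.9%, 44.3%, 45.7% and 29.9% of the Yap1 control regions were shared, from the lowest class to the highest. Among regions of up to 1500 bp the same classes gave 50.3%, 51.3%, 52.4% and 35.9%. Among longer regions they gave 14.3%, 21.6%, 27.1% and 21.7%, so long regions were the less shared in every class. In the Taz control list the classes gave 15.6%, 32.9%, 39.5% and 33.9%, with scores from 66 to 76 in the lowest class. Taz control regions of up to 1500 bp gave 14.2%, 34.5%, 40.6% and 34.1%, and longer ones 23.8%, 24.6%, 32.4% and 32.6%. Long Taz control regions were thus the more shared in the lowest class, and their share did not fall in the highest.

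Side by side, the scores of a pair often stood in nearly the same proportion. How the scores were scaled was not stated, so a ratio between lists is not read as a difference in level. The Taz control score divided by the Yap1 control score had a median of 1.30 over the 3112 pairs, and 1411 pairs (45.3%, 43.6 to 47.1) fell between 1.25 and 1.40. Among the 2247 pairs with equal edges, 1266 (56.3%, 54.3 to 58.4) fell in that band. Among the 865 pairs with different edges, 145 (16.8%, 14.4 to 19.4) did. The 52 pairs with equal edges and a Yap1 control score of 70 had Taz control scores with a median of 93 and an interquartile range of 88 to 97.25. At a Yap1 control score of 80 the median was 104, over 37 pairs, and the upper quartile was 113. For pairs of positive regions the fullest band of the same width, 0.60 to 0.75, held 13.5% of 1594 pairs. That band sits at another ratio, and the positive scores reached 1000, against 328 and 414 in the control lists. The 2 shares are therefore not a like-for-like comparison. All these scores were made against the same Dam-GFP sample, and the part of that sample in the narrow band was not tested. The band was chosen after the scores had been plotted.

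**Figure D3:**
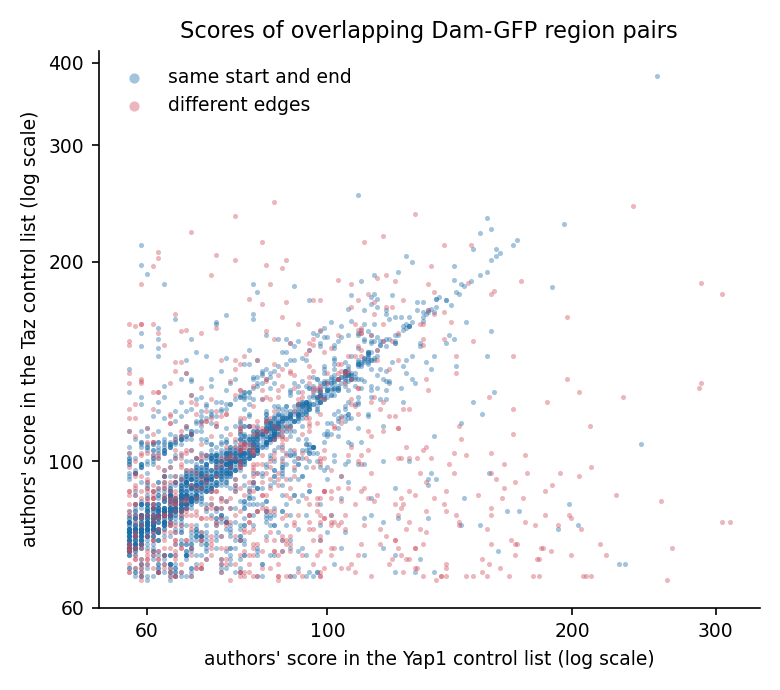
Each point is 1 of the 3112 overlapping pairs of shared control regions, placed by the authors' score in the Yap1 control list (x axis, log scale) and in the Taz control list (y axis, log scale), and coloured by whether both edges were the same. A dense ridge of pairs with equal edges runs along a ratio of about 1.30, and pairs with different edges scatter on both sides of it.

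The 10 shared control regions that ranked best in both lists at once were spread over 10 chromosomes. The first lay on chromosome 17 (6136769 to 6137545), with the same edges and scores of 254 in the Yap1 and 382 in the Taz control list. The next lay on chromosome 21 (33725115 to 33725959 in the Yap1 control list) with scores of 237 and 243, and its Taz control region began earlier, at 33724867. On chromosome 2 (9008915 to 9009477) both lists held the same 563 bp, with scores of 195 and 228. On chromosome 1 a Yap1 control region of 1600 bp (25292455 to 25294054, score 288) enclosed a Taz control region of 584 bp (score 186). A further overlapping pair on chromosome 1 with a Yap1 control score of 288 had a Taz control score of 131. It may be the same Yap1 control region meeting another Taz control region, and is not counted as a separate place.

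Chromosome 11 also had a pair with equal edges (15834111 to 15834916, scores 189 and 183). So did chromosome 5 (4263091 to 4265053, scores 171 and 216). A further such pair was on chromosome 8 (31372106 to 31372717, scores 169 and 212). The Taz control region on chromosome 22 (26672426 to 26679443, score 179) was 7018 bp long, and the Yap1 control region at its end scored 305, the third rank of that list. On chromosome 16 a Yap1 control region of 3849 bp (18065543 to 18069391, score 173) enclosed a Taz control region of 1124 bp (score 187). The last of the 10 was on chromosome 13 (18947073 to 18950265, score 197), where the Taz control region of the pair covered the first 1343 bp with a score of 165. A further overlapping pair on that chromosome with a Yap1 control score of 197 had a Taz control score of 133. Here too the Yap1 control region may be the same one. Of the 10, 5 had equal edges in both lists, 3 shared 1 edge, and in the remaining 2 the Taz control region lay inside the Yap1 control region.

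Several of the longest loci were long in 1 list only. On chromosome 13 (6860076 to 6867204) a Yap1 control region of 7129 bp, score 170, enclosed a Taz control region of 809 bp, score 72. Yap1 control regions of 6425 bp (chromosome 6, 29647603 to 29654027), 6280 bp (chromosome 18, 29363748 to 29370027) and 5876 bp (chromosome 15, 14869752 to 14875627) enclosed Taz control regions of 584, 534 and 264 bp. Their Yap1 control scores were 67, 61 and 61, near the floor of 57, and their Taz control scores were 76, 120 and 107. Chromosome 21 (14925726 to 14931565) showed the converse, a Taz control region of 5840 bp around a Yap1 control region of 538 bp.

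Among the 10 longest loci, the one on chromosome 22 named above was long in both lists, with 2 Yap1 control regions that covered 7003 bp and 1 Taz control region of 7018 bp with the same outer edges. A locus on chromosome 2 (13842372 to 13847533) covered 5144 bp in the Yap1 and 1246 bp in the Taz control list. Another on chromosome 13 (22720066 to 22725077) covered 5012 and 4266 bp, with scores of 305 and 81. The last of the 10 were on chromosome 25 (31416673 to 31421460), with 2653 and 2925 bp, and chromosome 1 (26527182 to 26531967), with 4786 and 3113 bp.

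Some exact lengths came back many times among the shared control regions. The length most often held was 809 bp, by 21 members of the Yap1 and 41 of the Taz control list, on 21 chromosomes. Each other length within 50 bp of it was held by a mean of 3.11 members in either list and by at most 8. It was also the most frequent length of the Yap1 control list only, with 62 regions on 23 chromosomes, whereas it was held by 17 regions of the Taz control list only and by 5 Yap1 and 4 Taz positive regions. Lengths of 537 bp, with 17 and 14 members on 15 chromosomes, and 348 bp, with 17 and 11 members on 13 chromosomes, also recurred. Other lengths within 50 bp reached up to 12 and 11 members around 537 bp, and up to 7 and 8 around 348 bp. The Taz control members of these lengths thus stood little above their neighbours. The recurring lengths were singled out after the values were seen.

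The 41 Taz control members of 809 bp met Yap1 control regions of 10 different lengths, several of which came back at different places. In 19 pairs, on 14 chromosomes, the Yap1 control region had the same 809 bp and the same edges, with Yap1 control scores from 65 to 110 and a median of 82. In 5 pairs, each on a different chromosome, the Yap1 control region was 348 bp long and lacked exactly 461 bp at 1 side. In 5 pairs it was 1827 bp long and went exactly 1018 bp further, at the end in 2 of them and at the start in 3. In 4 pairs it was 2096 bp long and went exactly 1287 bp further. Combinations of these steps also occurred: Yap1 control regions of 1366 bp (2 pairs) were shifted by 461 and 1018 bp, and those of 1635 bp (2 pairs) by 461 and 1287 bp. The remaining 4 pairs, with Yap1 control regions of 1256, 1363, 2095 and 7129 bp, had other combinations of shifts. Several exact spacings were thus met at separate places and in both orientations along the chromosome. Whether these places carry the same sequence was not tested.

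Some recurring lengths were more frequent in the Yap1 control list only than among the shared regions. The length of 2096 bp was held by 6 shared Yap1 control regions and by 53 regions of the Yap1 control list only, on 21 chromosomes, and by 2 regions of the Taz control list only. A length held by at least 20 regions of its own group was found for 357 of 4542 regions of the Yap1 control list only (7.86%, 7.11 to 8.68). Among the shared regions this held for 21 of 3087 in the Yap1 and 41 of 3077 in the Taz control list, and for 0 of 7023 regions of the Taz control list only. It also held for 185 of 5491 inner Taz positive regions (3.37%, 2.92 to 3.88) and for 0 of 6288 inner Yap1 positive regions. Such lengths were thus not confined to the control lists. The groups differ in size, which bears on such counts. In the inner Yap1 control list, 14 of the 83 regions of 809 bp were followed by another region after exactly 1820 bp, and 12 after exactly 764 bp.

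The shared control loci were spread over all 25 chromosomes at a mean of 2.47 ± 0.347 loci per Mb of inner length (SD over 25 chromosomes, which are not replicates). Chromosome 16 had the most, 163 loci or 3.05 per Mb (exact Poisson 95% interval 2.60 to 3.56), followed by chromosome 21 at 3.03 (2.54 to 3.59) and chromosome 25 at 2.81 (2.28 to 3.42). The lowest values were on chromosome 8, at 2.07 (1.70 to 2.50), chromosome 5, at 2.01 (1.69 to 2.37), and the inner part of chromosome 4 before 25 Mb, at 1.63 (1.16 to 2.22). Neighbours in this order had overlapping intervals throughout, and those of chromosomes 16 and 5 did not overlap.

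Chromosome 4 was the lowest in the Yap1 control list. Its inner part held 3.04 Yap1 control regions per Mb, against a mean of 6.12 ± 0.879 over the 25 chromosomes. For regions of the Taz control list only it held 5.83 per Mb, near the mean of 5.71 ± 0.712. Accordingly 39 of its 73 Yap1 control regions (53.4%, 42.1 to 64.4) were shared, the highest share of any chromosome, and 39 of its 179 Taz control regions (21.8%, 16.4 to 28.4), the lowest. Over all chromosomes these shares averaged 41.1% ± 4.07 and 30.4% ± 3.02 (SD). Chromosome 16 had the longest loci, with a median of 1021 bp, against 720 bp on chromosome 4.

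**Figure D4:**
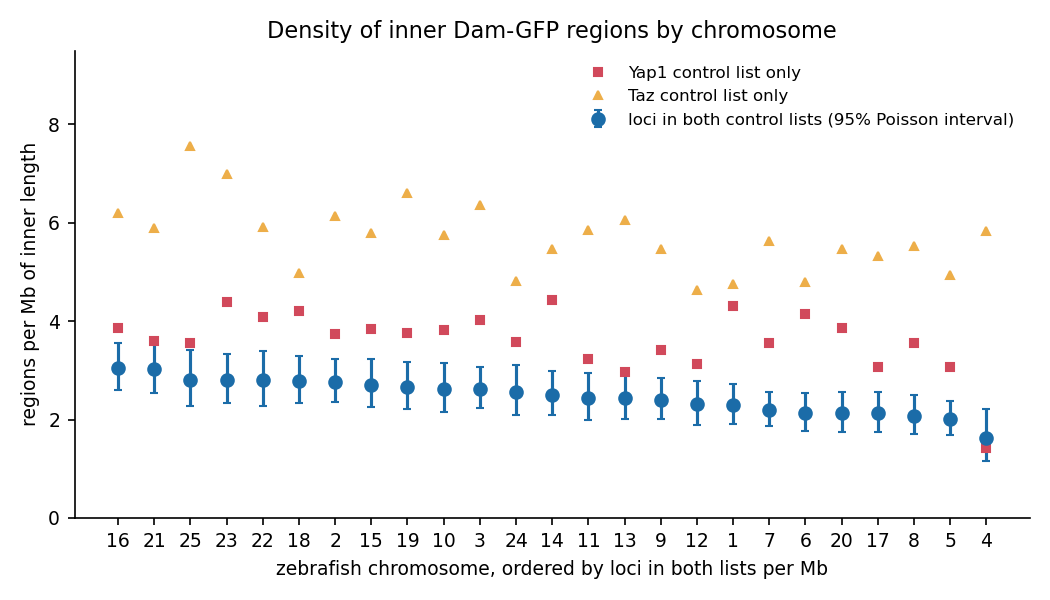
Inner Dam-GFP regions per Mb (y axis) on each zebrafish chromosome (x axis, ordered by the shared control loci), for loci in both control lists with exact Poisson 95% intervals and for regions of the Yap1 or the Taz control list only. Shared loci lie between 1.63 per Mb on chromosome 4 and 3.05 on chromosome 16, and chromosome 4 is also the lowest for the Yap1 control list only.

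Along the chromosomes the shared control loci were fewer than the available length in the class nearest the ends and close to it further in. Of them 2.95% (2.40 to 3.61) lay 1 to 2 Mb from an end, where 3.95% of the inner length lies. Regions of the Yap1 control list only were also below that share, at 3.32% (2.84 to 3.89). Those of the Taz control list only stood at 3.72% (3.30 to 4.18). Of the shared loci, 12.9% (11.7 to 14.1) lay at 2 to 5 Mb, where 11.9% lies, and 24.8% (23.3 to 26.3) beyond 20 Mb, where 25.2% lies. Regions of the Yap1 control list only were more central, with 46.3% (44.8 to 47.7) at 10 to 20 Mb from an end, where 39.2% of the length lies, against 40.2% (38.4 to 41.9) of the shared loci. In 1228 bins of 1 Mb the shared loci had a median of 2 per bin and were missing from 135 bins. The fullest bin, on chromosome 8 (34000001 to 35000000), held 13 loci. It also held 17 regions of the Taz control list only and 4 of the Yap1 control list only. It was among the 492 of the 1228 bins without a locus positive for both factors. The variance over the mean was 1.34 for the shared loci, 1.64 for regions of the Taz control list only and 3.49 for those of the Yap1 control list only. Their means per bin were 2.47, 5.68 and 3.67, and this difference in density bears on the comparison.

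Most shared control loci stood alone. The nearest other shared locus was at a median distance of 118.2 kb (108.0 to 128.0), and 266 of 3053 loci (8.71%, 7.76 to 9.77) had another within 10 kb. They formed 118 groups of 2 and 9 larger ones. The largest held 5 loci over 32852 bp of chromosome 20 (14625961 to 14658812), and the next held 4 over 14308 bp of chromosome 3 (49578951 to 49593258). Of the 7 groups of 3, the first in chromosome order spanned 8283 bp of chromosome 1 (24828803 to 24837085). Regions of the Yap1 control list only were grouped far more often, with 1950 of 4542 (42.9%, 41.5 to 44.4) within 10 kb of another of their kind. For regions of the Taz control list only this was 16.2% (15.4 to 17.1). The groups differ in density, which bears on these shares, so they do not rank the groups by how solitary their regions are.

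To set these shares beside the available length, windows of 831 bp, the median locus length, were laid every 1 kb along the inner chromosomes. Of the windows that overlapped no shared locus, 4.71% lay within 10 kb of one, against the 8.71% of shared loci given above. A region of the Yap1 control list only lay within 10 kb of 11.8% of shared loci (10.7 to 13.0), against 5.64% of windows outside such regions. One of the Taz control list only lay within 10 kb of 15.2% (14.0 to 16.5), against 10.4% of windows. The shared loci thus had another Dam-GFP region nearby more often than the windows did, for each of the 3 kinds. Having a region of the same kind nearby was not particular to them. It held for 42.9% of regions of the Yap1 control list only, against 5.64% of windows. For those of the Taz control list only it held for 16.2%, against 10.4%. A shared locus lay within 10 kb of 9.11% (8.31 to 9.99) of regions of the Yap1 control list only. For regions of the Taz control list only this was 7.18% (6.60 to 7.80). These shares count the same neighbours from the other side. Of regions of the Yap1 control list only, 10.7% (9.88 to 11.7) had one of the Taz control list only within 10 kb. Windows gave 10.4%. In the other direction 6.39% (5.84 to 6.99) stood against 5.64% of windows. Windows include gaps in the assembly and stretches without a usable GATC site, whose part in these differences was not tested.

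With overlaps included, positive regions lay within 10 kb of the shared control loci somewhat less often than of the windows. With overlaps left out, the window share lay outside the interval of the loci for Taz positive regions only. The Taz positive regions showed the larger difference. Positive and control regions are opposite signs of the same comparisons that chose the members. These shares are thus tied to the rule, and no test was made. A region where Yap1 or Taz exceeded Dam-GFP lay within 10 kb of 375 of 3053 loci (12.3%, 11.2 to 13.5), against 14.8% of all windows. Leaving out what overlapped a positive region gave 12.2% (11.11 to 13.44) of loci and 13.42% of windows, which lies within that interval. By factor, overlaps included, 244 loci (7.99%) had a Yap1 positive region within 10 kb and 185 (6.06%) a Taz positive region, against 9.26% and 8.37% of windows. With overlaps left out, the 95% interval for Taz positive regions was 5.21 to 6.90%, against 7.56% of windows. The Yap1 positive share of 7.99% (7.08 to 9.01) stood against 8.37%, which lies within its interval. The lower Taz positive share was not particular to the shared loci. It was 6.68% (5.99 to 7.45) for regions of the Yap1 control list only and 6.28% (5.74 to 6.87) for those of the Taz control list only. For a positive region of either factor these groups gave 10.7% and 13.2%, and for Yap1 positive regions 5.68% and 9.20%. Within 50 kb, overlaps included, 27.0% of loci (25.5 to 28.6) had a Taz positive region, against 30.9% of windows. The median distance to a positive region of either factor was 55.3 kb (52.9 to 58.8). Of regions of the Yap1 control list only, 36 of 4542 overlapped a positive region of either factor. For those of the Taz control list only it was 45 of 7023, and for windows 20179 of 1239437. Each shared locus holds a control region of both comparisons, so such overlap is limited by the rule. It was found at 2 of the 3053 loci, both with a Taz positive region. They lay on chromosome 17 (1441646 to 1443951), where the Taz positive region covered the last 770 bp with a score of 68, and chromosome 7 (5063523 to 5065123), where it covered 446 bp with a score of 76. On chromosome 17 the Taz positive region ended where the locus ended, and on chromosome 7 it lay inside the locus. Which control region it overlapped is not given here.

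**Figure D5:**
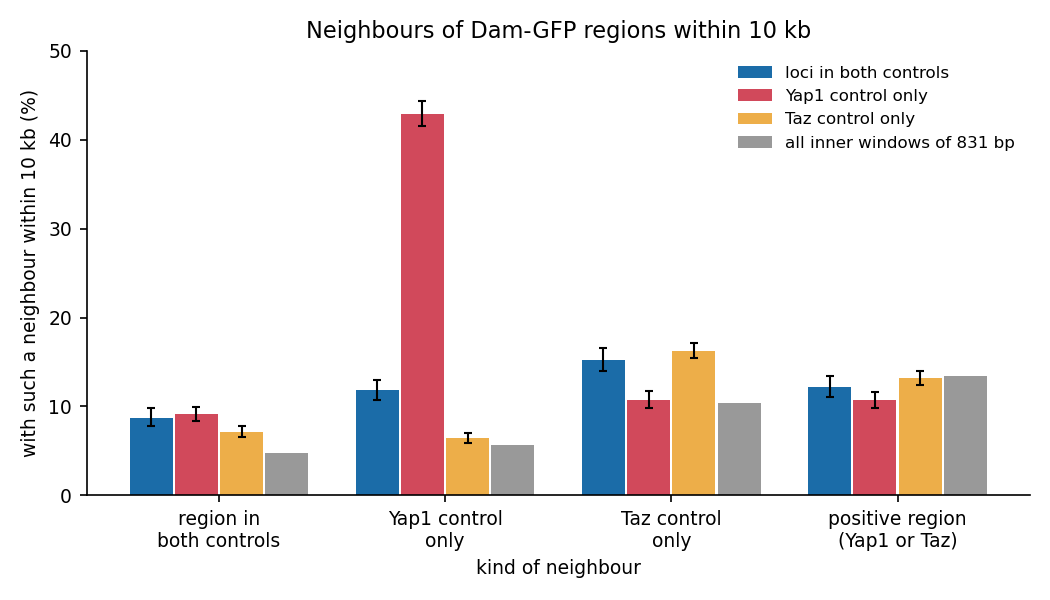
Share (y axis, percent, bars from 0) of shared control loci, of regions of the Yap1 or the Taz control list only, and of all inner windows of 831 bp that had a neighbour of the kind on the x axis within 10 kb, leaving out those that overlapped it. Wilson 95% intervals are shown except for windows, and the bar for regions of the Yap1 control list only near one another, at 42.9%, stands above the rest.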

How the data were processed

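Genomic DNA of injected zebrafish embryos was digested, ligated to adapters and amplified by 25 cycles of PCR before sequencing, per the labels' protocols. The submitters' processing notes name cutadapt, Bowtie2, SAMtools, bedtools and GRCz10 (danRer10), without versions. No caller, threshold or pooling step is given in the sources used here. The deposited lists gave each region's start, end and a score made by the authors, whose quantity was not stated. The 4 zebrafish lists were used and the 4 medaka lists were not.

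Overlaps, distances and intervals were computed in Python 3.11.15 with pandas 2.3.3 and scipy 1.17.1, and the overlap step was tested on simulated data. Chromosome length was taken as the largest region end over the 4 lists, a lower bound. Shares carry Wilson 95% intervals, medians carry order-statistic intervals and densities carry exact Poisson intervals. No test was made: each group was 1 sample, and membership used both comparisons. The regions named are the 10 best by the worse of their score ranks in both lists, the 10 longest loci and the 3 largest groups within 10 kb, besides those at the limits of the rule. Members, classes and alternatives were chosen with earlier results of these data known. Starts are 1-based.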

Additional observations from a re-analysis of the deposited data

How the results depend on the processing

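The 9 results recomputed were the counts of shared control regions, their shares of the inner lists and their median lengths in each list, the share of pairs with equal edges, and the shares of loci near another locus or a positive region. Each stayed within 1.5 times (counts) or within its 95% interval when an overlap of at least 50% of the shorter region was asked, when 2 Mb were left out at each end, when chromosome 4 was kept whole, and when regions up to 4 bp apart were paired too. Keeping only regions at or above the median score of their list left 1159 Yap1 and 1161 Taz control regions, shares of 30.1% and 22.3%, and 3.04% of loci with another within 10 kb. Keeping only regions of up to 1500 bp gave shares of 44.7% for Yap1 and 28.3% for Taz, a median length of 697 bp in each list, equal edges in 86.3% of pairs, and 6.20% of loci with another within 10 kb. Fewer and shorter regions enter these sets by construction. At 50 kb, 29.2% of loci had another locus and 46.1% a positive region nearby. The 4 bp and 1500 bp alternatives were chosen after seeing the data. Base content and gene position were not run. No paired analysis was possible because each group was 1 sample and no result came from a test. Read depth is unknown, so the depth behind a region limits every statement on scores.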
